A study of Mus musculus with 2 samples.

Results

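The genes described here are 40 S phase and mitosis genes, 20 of each, followed through T cells of the spleen after loss of PRMT5, an arginine methyltransferase, in the T lineage. They were chosen by name: a gene belongs when its symbol equals 1 of the 40 symbols, and each symbol matched 1 of the 30905 genes in the deposited tables. Groups came from the sample titles: a Prmt5 CKO library and a control library, both of CD3+ spleen cells of the C57BL/6 strain. In the CKO mice a CD4-Cre transgene, active from the CD4-expressing stage of thymocytes onwards, deletes a floxed Prmt5 gene. The genotype field reads CD4-Cre+ PRMT5fl/fl for both samples, so it does not state whether control mice carried Cre or the floxed alleles. Each library pools cells of 3 mice, per the design text, with no map from cell to mouse. A library is therefore 1 sample, and genotype and library cannot be told apart. Mouse age is not given in the sources used here.

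A dividing cell first licenses replication origins with the MCM helicase, then copies its DNA during S phase, and then separates the chromosomes in mitosis. E2F transcription factors switch on many S phase genes, while later genes are repressed in resting cells and activated late in the cycle through CHR and CCAAT promoter elements. Most spleen T cells rest, and cells that divide are found mainly among activated, memory and regulatory cells. Mki67, which encodes the proliferation marker Ki-67, served to divide cells into Mki67-positive cells, with at least 1 Mki67 UMI (unique molecular identifier, a counted RNA molecule), and Mki67-negative cells. Its own level in these sets is fixed by that division and is no finding.

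The CKO library held 7896 barcodes and 52387620 UMIs and the control library 7407 barcodes and 48273424 UMIs. After the cell filter, 7560 CKO and 6618 control T cells remained, with medians of 6049 and 6288 UMIs. Cd3e, a chain of the CD3 complex used in the sort, had a UMI in 93.5 to 100% of cells of each T cell cluster. The libraries shared 11 barcodes. Scrublet called 0 doublets in either library, which means that it has not worked, so doublets remain. The median mitochondrial share was 4.33% in kept CKO cells and 5.09% in kept control cells. Prmt5 itself stood at 4.84 CPM (CPM, a gene's UMIs scaled to a fixed total of UMIs in the cells summed) in CKO T cells and 15.03 CPM in control T cells, a log2 ratio of -1.64. In Mki67-positive cells it stood at 9.76 CPM from 29 UMIs and 22.8 CPM from 51 UMIs (log2 -1.23, -1.94 to -0.54). In Mki67-negative cells it stood at 4.53 and 14.6 CPM (log2 -1.69, -1.92 to -1.47). With 1 library per group there is no test. Values carry exact 95% intervals. These cover counting error only: UMIs of 1 cell are not independent, and the error between mice is not in them.

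Promoters show how the lists differ in sequence. The RefSeq table for GRCm38.p6, the assembly behind mm10, gave windows for 35 of the 40 genes, 38 windows in all, from 250 bases before the start to 50 after it. Mcm4, Gins2, Tpx2, Ccna2 and Aurkb had no entry. The windows of Mcm5 and Mcm6 are shown for their E2F motifs, and those of Ccnb2 and Ube2c for CHR and CCAAT motifs. Ccnb2 and Ube2c are also among the members with the highest CKO over control ratios below. So is Birc5, whose window held 0 E2F, 0 CHR and 0 CCAAT motifs. A link between motifs and ratios was not tested. On mm10 (GENCODE vM21), Ccnb2 (ENSMUSG00000032218) spans 70407692 to 70421547 of chromosome 9 and Ube2c (ENSMUSG00000001403) 164769898 to 164778822 of chromosome 2. Mcm5 (ENSMUSG00000005410) spans 75109569 to 75128439 of chromosome 8 and Mcm6 (ENSMUSG00000026355) 128331590 to 128359664 of chromosome 1. Capitals mark every match to an E2F motif (TTTCCCGC, TTTGGCGC, TTTGCCGC or TTTCGCGC), a CHR (TTTGAA) or a CCAAT box on either strand, and overlapping matches run together.
Mcm5, GRCm38.p6 chr8:75109259-75109558, plus strand: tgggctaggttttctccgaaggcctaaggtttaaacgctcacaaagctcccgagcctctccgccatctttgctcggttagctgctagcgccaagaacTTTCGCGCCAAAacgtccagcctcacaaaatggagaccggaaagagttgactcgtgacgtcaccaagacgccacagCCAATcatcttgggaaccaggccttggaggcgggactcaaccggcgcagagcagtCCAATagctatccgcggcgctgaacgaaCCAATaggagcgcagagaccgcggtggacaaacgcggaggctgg
Mcm6, GRCm38.p6 chr1:128359656-128359955, minus strand: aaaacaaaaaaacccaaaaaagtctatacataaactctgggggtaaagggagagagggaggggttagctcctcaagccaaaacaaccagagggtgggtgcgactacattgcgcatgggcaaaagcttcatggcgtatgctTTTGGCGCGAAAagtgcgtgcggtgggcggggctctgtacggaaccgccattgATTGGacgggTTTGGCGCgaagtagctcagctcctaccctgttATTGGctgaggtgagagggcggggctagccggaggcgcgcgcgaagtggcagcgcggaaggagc
Ccnb2, GRCm38.p6 chr9:70421505-70421804, minus strand: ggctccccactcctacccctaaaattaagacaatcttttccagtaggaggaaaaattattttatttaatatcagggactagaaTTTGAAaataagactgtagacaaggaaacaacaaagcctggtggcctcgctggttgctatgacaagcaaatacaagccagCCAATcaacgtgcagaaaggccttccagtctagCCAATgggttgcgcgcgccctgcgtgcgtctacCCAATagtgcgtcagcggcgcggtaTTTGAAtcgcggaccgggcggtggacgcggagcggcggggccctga
Ube2c, GRCm38.p6 chr2:164769679-164769978, plus strand: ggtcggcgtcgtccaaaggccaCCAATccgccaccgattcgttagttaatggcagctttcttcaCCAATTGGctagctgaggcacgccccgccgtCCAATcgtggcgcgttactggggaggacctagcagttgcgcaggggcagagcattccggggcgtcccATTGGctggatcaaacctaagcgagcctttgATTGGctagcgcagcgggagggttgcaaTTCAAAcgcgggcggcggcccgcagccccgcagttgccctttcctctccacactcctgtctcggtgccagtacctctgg

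An E2F motif was found in 33.3% of S phase windows (7 of 21), 5.88% of mitosis windows (1 of 17) and 2.26% of all 32851 windows in the table. A CHR was found in 14.3%, 64.7% and 17.9% in the same order, and a CCAAT box in 66.7%, 88.2% and 37.4%. Both a CHR and a CCAAT box were present in 9.52% of S phase windows (2), 64.7% of mitosis windows (11) and 6.95% of all windows. In Ccnb2 the 3 CCAAT boxes begin 87, 54 and 21 bases before the start. A match is a description of letters and not a binding site.

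The members separated Mki67-positive from Mki67-negative cells to very different degrees, and more for mitosis genes than for S phase genes. In the CKO library the 19 mitosis members other than Mki67 had levels in Mki67-positive cells that were a median of 98.5 times those in Mki67-negative cells (range 3.5 to 425). In the control library the median was 128 (range 3.57 to 621). For the 20 S phase members the medians were 6.30 in the CKO library (range 1.73 to 128) and 7.82 in the control library (range 2.65 to 102). The ranges of the lists thus overlap, and the split was made with Mki67, itself a gene of the mitosis list. Nusap1, which bundles spindle microtubules, had the widest step, at 202 against 0.476 CPM in CKO cells and 196 against 0.315 CPM in the control library. Ung, which removes uracil from DNA, had the smallest, at 29.95 against 17.3 CPM in CKO cells and 36.2 against 13.7 CPM in the control library.

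**Figure D1:**
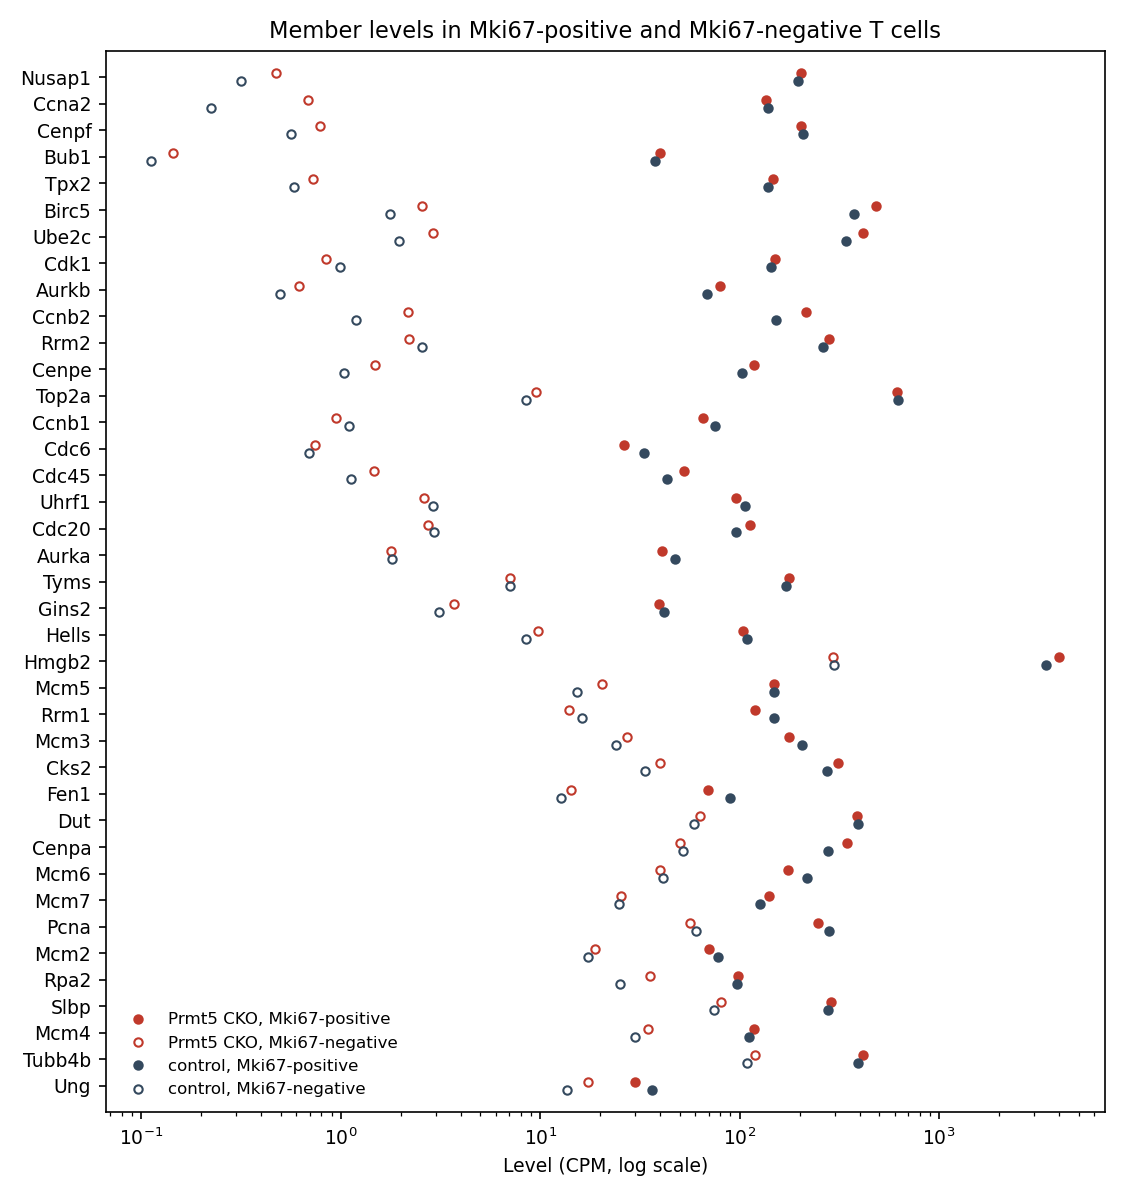
Level of each member in CPM (log axis) in Mki67-positive cells (filled points) and Mki67-negative cells (open points) of the CKO and control libraries, ordered by the step in the control library. Nusap1, at 202 CPM in Mki67-positive CKO cells and 196 CPM in Mki67-positive control cells, tops the plot, and Ung, with steps of 1.73 and 2.65 times, ends it.

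This split also shows where the UMIs come from. Mki67-positive cells held a median of 85.8% of the UMIs of a mitosis member in the CKO library and 86.5% in the control library, but 27.9% and 28.2% of those of an S phase member. For Ube2c, an ubiquitin-conjugating enzyme of the anaphase-promoting complex (APC/C), they held 89.7% and 89.8%. For Hmgb2, a chromatin protein with the most UMIs of all members, they held 45.5% and 36.7%. Hmgb2 and the tubulin gene Tubb4b were read in a large part of Mki67-negative cells too, with a UMI in 67.3% of CKO and 71.7% of control cells for Hmgb2 and in 48.6% and 47.3% for Tubb4b. Summed over the 19 mitosis members other than Mki67, 24097 of 49833 UMIs in the CKO library and 15922 of 38908 in the control library lay in the 192 CKO and 143 control Mki67-positive cells.

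Mki67-positive cells made up 2.54% of CKO T cells (2.20 to 2.92, 192 of 7560) and 2.16% of control T cells (1.82 to 2.54, 143 of 6618), a ratio of 1.18 (0.942 to 1.47). The intervals overlap. The direction turned with a stricter cell filter (1000 or more genes and a mitochondrial share below 5%), where the shares were 2.48% among 5635 CKO cells and 2.71% among 3061 control cells. That filter kept a larger part of the CKO cells than of the control cells. Thinned to 2000 UMIs per cell, the shares were 1.23% (92 of 7508) and 0.910% (60 of 6593), with 52 CKO and 25 control cells left out as too shallow. Mki67-positive cells were deeper than the others, with medians of 13420 UMIs in the CKO library and 13134 in the control library, against 5986 and 6266 in Mki67-negative cells. Among the highest 6% of doublet scores were 4 of 192 CKO and 7 of 143 control Mki67-positive cells. These scores come from the Scrublet run that has not worked, so they cannot show whether Mki67-positive cells include doublets.

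By cell type, the CKO share was higher in naive- or memory-like CD8, memory-like CD4 and Treg-like cells. In naive- or memory-like CD8 cells, the cytotoxic lineage outside the effector cluster, it was 2.87% (2.07 to 3.87, 41 of 1430) in the CKO library and 1.40% (0.906 to 2.06, 25 of 1789) in the control library, a ratio of 2.05 (1.22 to 3.52). In memory-like CD4 cells it was 18.0% (12.97 to 23.9, 37 of 206) and 10.4% (7.99 to 13.3, 57 of 547), a ratio of 1.72 (1.11 to 2.65). In Treg-like cells, which express Foxp3 and restrain other T cells, it was 6.72% (34 of 506) and 4.13% (22 of 533), a ratio of 1.63 (0.925 to 2.92) whose interval reaches below 1. The Treg-like ratio turned to 0.928 with Top2a in place of Mki67, to 0.906 with coarser clustering (Leiden resolution 0.5) and to 0.468 in cells thinned to 1000 UMIs.

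The remaining types gave wide intervals. Effector-like CD8 cells, which express granzymes, held 17.1% (28 of 164) in the CKO library and 17.4% (8 of 46) in the control library. An unnamed cluster with Fcer1g and Trdc among its leading genes held 5.71% (21 of 368) and 3.78% (13 of 344), a ratio of 1.51 (0.722 to 3.28) that turned to 0.899 with the stricter filter and to 0.506 in cells with Y-linked UMIs and no Xist. Naive-like CD4 cells, the most numerous type, held 0.372% (15 of 4028) and 0.454% (13 of 2865), at medians of 5539 and 5710 UMIs. Their ratio of 0.821 turned to 1.16 with Top2a in place of Mki67. The mitosis members of these Mki67-positive naive-like cells summed to 11056 and 14481 CPM. A few cells can carry such a sum, and the part of free RNA in this share was not tested. B-like cells held 2 of 75 CKO and 2 of 68 control cells, at medians of 5716 and 4454 UMIs, and B cells can divide too, so no type gave a clean background. The libraries differed in makeup: weighted by the cell types of the control library, the CKO share would be 3.49%, against 2.16% in the control library.

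**Figure D2:**
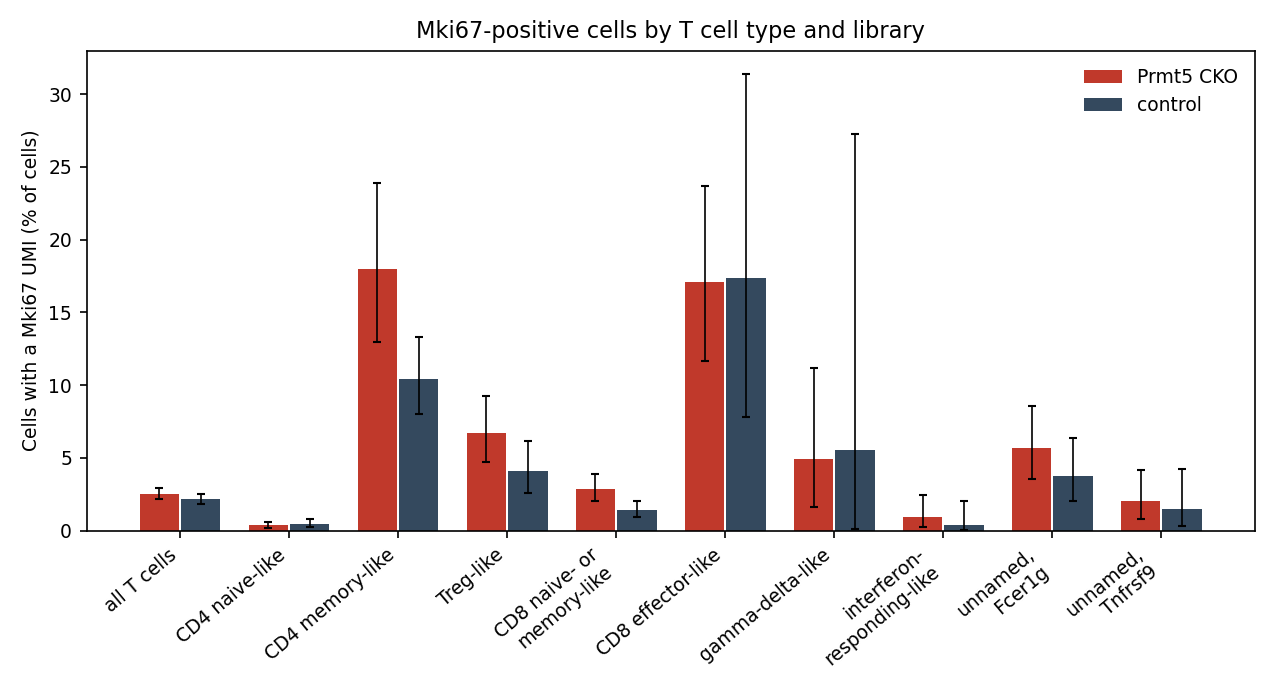
Share of cells with a Mki67 UMI (percent of cells) by T cell type, CKO left of control, with exact binomial 95% intervals that cover counting error only. CKO bars stand above control bars in memory-like CD4 cells (18.0% and 10.4%) and naive- or memory-like CD8 cells (2.87% and 1.40%), while the bars of effector-like CD8 cells are nearly level at 17.1% and 17.4%.

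Naive- or memory-like CD8 cells showed the broadest difference among the members. In them 39 of the 40 members were higher in the CKO library, 26 by at least 1.5-fold and 0 lower by that much. Over all genes with at least 30 UMIs in these cells, 7.72% were higher by 1.5-fold and 2.88% lower, and 63.4% were higher by any amount. The median log2 ratio was 0.57 for S phase members, 1.31 for mitosis members and 0.09 for all genes. Summed, mitosis members stood at 987 CPM in CKO cells and 605 CPM in the control library, a ratio of 1.63 (1.59 to 1.68), and S phase members at 663 and 490 CPM, a ratio of 1.35 (1.31 to 1.40).

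Single members of the CD8 cells show the size of the difference. Cenpf, a kinetochore protein of late cycle cells, had 13.5 CPM from 150 UMIs in the CKO library and 3.03 CPM from 42 UMIs in the control library (log2 2.16, 1.66 to 2.69). Tpx2, which starts spindle microtubules and activates Aurora A, had 12.0 CPM and 2.88 CPM (log2 2.06). Ube2c had 28.5 CPM and 6.99 CPM (log2 2.03, 1.70 to 2.37). Each of these intervals lies clear of 0. Birc5, which encodes survivin of the chromosomal passenger complex, had 35.9 and 11.7 CPM (log2 1.62). Top2a, which untangles DNA, had 61.5 and 22.1 CPM (log2 1.48). Among S phase members, Cdc6, which loads MCM onto origins, had 2.35 CPM from 26 UMIs and 0.937 CPM from 13 UMIs (log2 1.32), and Cdc45, part of the active helicase, had 6.23 and 2.52 CPM (log2 1.30). Rrm2, the cycle-regulated subunit of ribonucleotide reductase, had 18.7 and 7.998 CPM (log2 1.22). Rrm1, its partner subunit, was the member that was not higher, at 19.4 and 20.6 CPM (log2 -0.09, -0.35 to 0.17).

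The CD8 difference kept its direction in subsets of the cells. With the stricter filter, the summed mitosis ratio was 1.34 and the S phase ratio 1.31. Cells can also be divided by sex-linked transcripts. Among CD8 cells with Y-linked UMIs and no Xist, the mitosis ratio was 1.67 and the S phase ratio 1.63. This subset held 16 CKO but only 3 control Mki67-positive cells. Among cells with Xist and no Y-linked UMIs, with 19 and 18 such cells, the mitosis ratio was 1.84 and the S phase ratio 1.29. Member counts are not given for these subsets, because no share over all genes was computed for them. Most of the mitosis difference lay with the Mki67-positive cells: without them the mitosis ratio was 1.08 (1.04 to 1.13) and the S phase ratio 1.21 (1.16 to 1.253). The 10 cells with the most mitosis UMIs held 27.0% of those UMIs in the CKO library and 23.8% in the control library. When cell cycle genes were kept in the clustering, 37 of 41 Mki67-positive cells of this type from the CKO library, and 15 of 25 from the control library, lay in an unnamed mixed cluster, and the ratio of shares among the cells still named CD8 naive- or memory-like turned to 0.397.

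**Figure D3:**
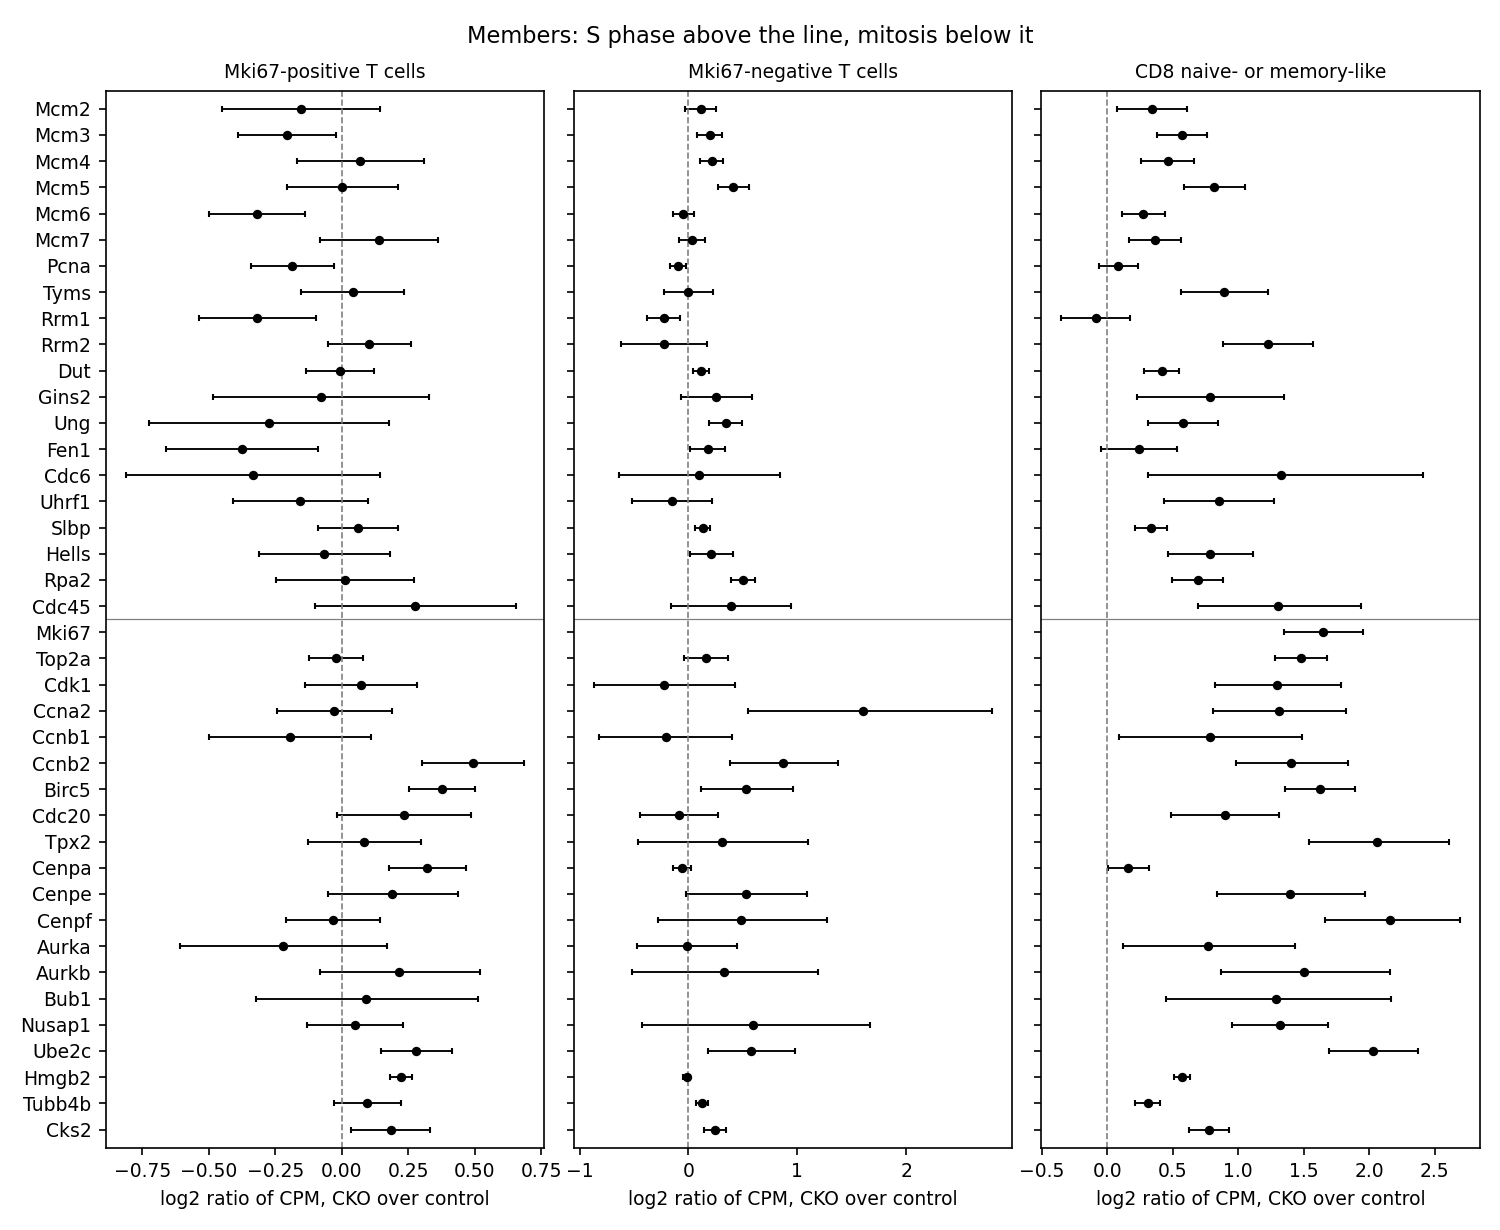
Log2 ratio of CPM, CKO over control, for each member with at least 30 UMIs in Mki67-positive T cells, Mki67-negative T cells and naive- or memory-like CD8 cells, with exact 95% intervals for counting error; S phase members stand above the line and mitosis members below it, and each panel has its own scale. In the CD8 panel only Rrm1 (-0.09) lies left of 0, while in Mki67-positive cells Ccnb2 (0.49) lies farthest right and Fen1 (-0.38) farthest left.

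Treg-like and memory-like CD4 cells shared the mitosis part of this difference. In Treg-like cells 19 of 19 measured mitosis members and 14 of 19 S phase members were higher in the CKO library, where 53.7% of all genes were higher. Of the 38 together, 18 were higher by 1.5-fold, against 6.12% of all genes, and 1, Ung, was lower by 1.5-fold, against 5.6% of all genes. Ccnb2, cyclin B2, which partners CDK1, stood at 37.2 CPM from 143 UMIs in CKO Treg-like cells and 8.83 CPM from 34 UMIs in control Treg-like cells (log2 2.08, 1.53 to 2.66). Birc5 stood at 62.2 and 21.8 CPM (log2 1.51) and Ube2c at 70.3 and 26.0 CPM (log2 1.44). Summed mitosis members had a ratio of 1.58 (1.52 to 1.65). It was 1.33 with the stricter filter, 1.51 in cells with Y-linked UMIs and 1.499 in cells with Xist. Here 10 cells held 51.9% of the mitosis UMIs in the CKO library and 45.1% in the control library.

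In memory-like CD4 cells 20 of 20 mitosis members were higher in the CKO library, and 10 of 20 S phase members, where 51.4% of all genes were higher. The 10 cells with the most mitosis UMIs held 47.6% of them in the CKO library and 40.6% in the control library. By 1.5-fold 8 members were higher, against 7.46% of all genes, and 1, Cdc6 at 9 and 32 UMIs, was lower, against 7.91% of all genes. Ccnb2 stood at 76.5 and 42.0 CPM (log2 0.87), and Cdc20, which activates the APC/C at anaphase, at 39.2 and 21.6 CPM (log2 0.86). Cenpe, a kinetochore motor, stood at 44.7 and 25.5 CPM (log2 0.81), and Cdk1, the mitotic kinase, at 58.6 and 35.1 CPM (log2 0.74). Mitosis members summed to 3719 and 2606 CPM, a ratio of 1.43 (1.39 to 1.47), and S phase members to 1204 and 1125 CPM, a ratio of 1.07. The S phase ratio turned to 0.885 with the stricter filter and to 0.694 in cells with Y-linked UMIs, while the mitosis ratio remained above 1 in both, at 1.20 and 1.16.

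Naive-like CD4 cells went the other way for mitosis members. Their summed level was 511 CPM in CKO cells and 577 CPM in the control library, a ratio of 0.885 (0.862 to 0.909), and 16 of 20 were lower. The ratio was 0.786 with the stricter filter, 0.857 in cells with Y-linked UMIs and 0.818 in cells with Xist. Of the 39 measured members 6 were lower by 1.5-fold, against 2.61% of all genes, and 1 was higher, against 5.1% of all genes. Cenpf had 3.69 CPM from 86 UMIs and 9.26 CPM from 157 UMIs (log2 -1.33, -1.73 to -0.94), and Cdk1 had 1.37 and 2.71 CPM (log2 -0.98). The member that was higher was Rpa2, a subunit of the protein that coats single-stranded DNA at forks, at 29.5 CPM from 688 UMIs and 19.46 CPM from 330 UMIs (log2 0.60, 0.41 to 0.79). This mitosis difference rests on few cells, 15 Mki67-positive cells in the CKO library and 13 in the control library. Without them the ratio was 0.960 (0.932 to 0.988), still below 1. Only 10 of the 19 mitosis members other than Mki67 were measured there, and 8 were higher, where 58.3% of all genes were higher. Different clusters held this type: 1 held 949 CKO and 44 control cells, another 1379 and 358, and another 641 and 1403.

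In the unnamed Fcer1g cluster 17 of 17 measured mitosis members and 17 of 19 S phase members were higher in the CKO library, where 73.2% of all genes were higher. Mitosis members summed to 1626 and 912 CPM, a ratio of 1.78 (1.70 to 1.86). It turned to 0.860 in cells with Y-linked UMIs, with 2 CKO and 4 control Mki67-positive cells, and was 2.92 in cells with Xist, with 15 and 7. Effector-like CD8 cells gave 11 of 17 mitosis and 3 of 19 S phase members higher, where 48.7% of all genes were higher. Cenpa stood there at 129 and 69.7 CPM (log2 0.89) and Gins2 at 12.9 and 31.2 CPM (log2 -1.27). Their mitosis ratio was 1.09 and turned to 0.752 in cells with Y-linked UMIs.

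**Figure D4:**
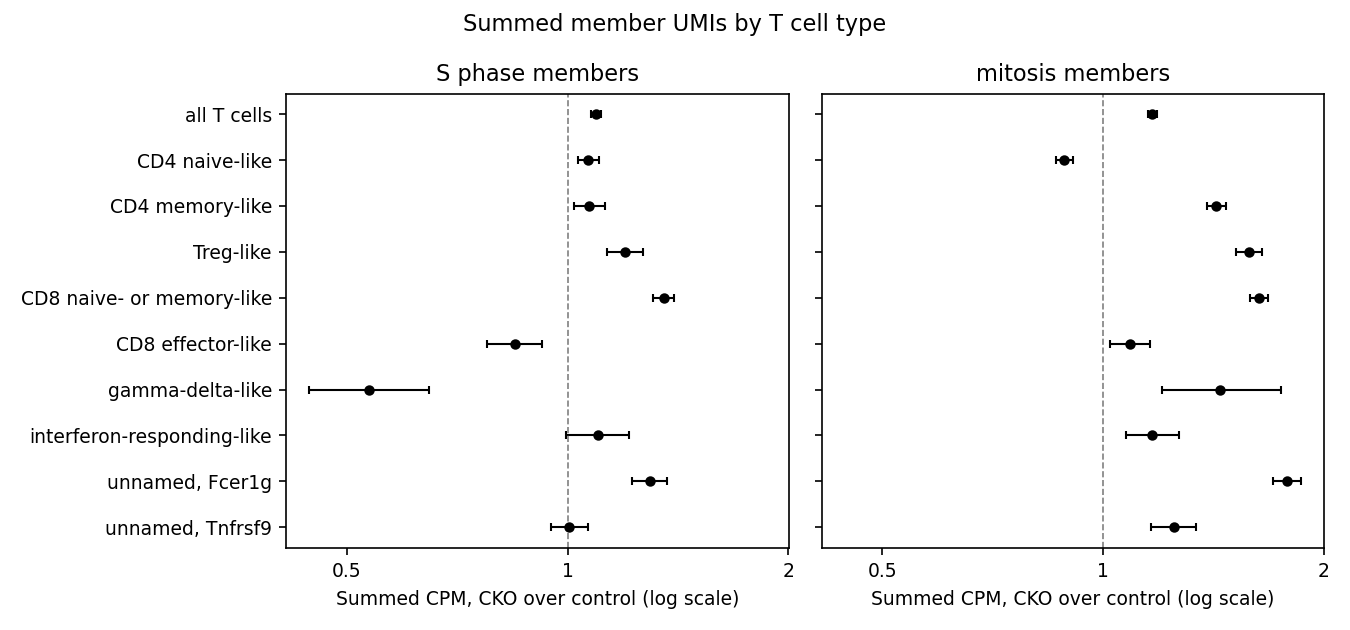
Ratio of summed CPM, CKO over control (log axis), for S phase and mitosis members in each T cell type, with exact 95% intervals for counting error. Mitosis ratios reach 1.63 in naive- or memory-like CD8 cells and 1.78 in the unnamed Fcer1g cluster and lie below 1 in naive-like CD4 cells (0.885); S phase ratios lie below 1 in effector-like CD8 (0.846) and gamma-delta-like cells (0.535).

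Over all T cells the differences were smaller. In that pool 36 of 40 members were higher in the CKO library, against 60.1% of all genes, with a median log2 ratio of 0.23, against 0.05 for all genes. Only Ccnb2 and Birc5 passed 1.5-fold, both higher, against 5.87% of genes higher and 2.9% lower by that much. Ccnb2 stood at 14.4 CPM from 741 UMIs and 8.41 CPM from 393 UMIs (log2 0.78), and Birc5 at 30.5 and 19.55 CPM (log2 0.64). Summed mitosis members stood at 997 and 854 CPM (ratio 1.17) and S phase members at 613 and 561 CPM (ratio 1.09). Both ratios turned with the stricter filter, to 0.957 and 0.972. In cells with Y-linked UMIs the mitosis ratio was 0.885, and in cells with Xist 1.30.

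Within Mki67-positive cells the question is whether a cycling CKO cell carries the same transcripts as a cycling control cell. Pooled over cell types, 0 of 39 members passed 1.5-fold there, against 7.18% of all genes higher and 4.22% lower. Of the members, 22 were higher, 14 of 19 for mitosis and 8 of 20 for S phase, and all genes were higher in 53.5%. Counting intervals lay above 0 for 6 mitosis members and below 0 for 5 S phase members. Summed, mitosis members stood at 8109 and 7123 CPM, a ratio of 1.14 (1.12 to 1.16), and S phase members at 2844 and 2974 CPM, a ratio of 0.956 (0.926 to 0.988). With every cell weighted equally the S phase ratio turned to 1.17, and with at least 2 Mki67 UMIs asked of a positive cell the mitosis ratio turned to 0.993. The pool does not describe each type. Among Mki67-positive cells the mitosis ratio was 1.57 in naive- or memory-like CD8 and 1.72 in Fcer1g cluster cells. It was 1.23 in effector-like CD8, 1.21 in memory-like CD4, 1.12 in Treg-like and 0.764 in naive-like CD4 cells. The S phase ratios were 1.18, 0.966, 0.913, 0.782, 0.931 and 2.76 in the same order.

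Among the helicase and licensing genes, Mcm6 was at 175 CPM in Mki67-positive CKO cells and 218 CPM in Mki67-positive control cells (log2 -0.32, -0.50 to -0.14), and Mcm3 at 177 and 204 CPM (log2 -0.21). The other subunits, Mcm2, Mcm4, Mcm5 and Mcm7, had log2 ratios between -0.15 and 0.14 with intervals across 0. The same holds for Cdc6 (-0.33), Cdc45 (0.27) and Gins2 (-0.08), a subunit of the GINS part of the helicase. At the fork, Fen1, which trims Okazaki fragments, was at 69.3 and 89.9 CPM (log2 -0.38, -0.66 to -0.09). Pcna, the sliding clamp, was at 247 and 280.5 CPM (log2 -0.19), and Rpa2 at 98.3 and 97.5 CPM (log2 0.01). Of the nucleotide genes, Rrm1 was at 119 and 148 CPM (log2 -0.32, -0.54 to -0.10). Intervals of the others crossed 0: Rrm2 (0.10), Tyms, which makes thymidylate (0.04), Dut, which breaks down dUTP (-0.01), and Ung (-0.27). So did those of Uhrf1, which guides DNA methylation after replication (-0.16), Hells, a chromatin remodeller (-0.07), and Slbp, which binds histone mRNA (0.06).

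Among the cyclins, Ccnb2 was at 214 CPM from 636 UMIs in Mki67-positive CKO cells and 152 CPM from 340 UMIs in Mki67-positive control cells (log2 0.49, 0.30 to 0.69). The related Ccnb1 was at 65.6 and 75.2 CPM (log2 -0.20, -0.50 to 0.11), Ccna2 at 136 and 138 CPM (log2 -0.03) and Cdk1 at 151 and 144 CPM (log2 0.07). Thus Ccnb2 alone of the cyclins had an interval above 0. Cks2, a CDK-binding subunit, was at 312 and 275 CPM (log2 0.18). Birc5 was at 485 and 373 CPM (log2 0.38, 0.25 to 0.50), Cenpa, the centromeric histone H3 variant, at 347 and 278 CPM (log2 0.32), and Ube2c at 414 and 341 CPM (log2 0.28). Hmgb2 was at 4007 and 3436 CPM (log2 0.22). The other spindle, checkpoint and chromatin members had intervals across 0. They are Tpx2 (0.08), Cenpe (0.19), Cenpf (-0.03), the Aurora kinases Aurka (-0.22) and Aurkb (0.22), the checkpoint kinase Bub1 (0.09), Nusap1 (0.05), Tubb4b (0.10), Cdc20 (0.23) and Top2a (-0.02).

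These values in Mki67-positive cells depended on which cells were read. In the 50 CKO and 32 control Mki67-positive cells with Y-linked UMIs and no Xist, the summed mitosis ratio was 0.707. Ccnb2 was there at 203 CPM from 148 UMIs and 242 CPM from 130 UMIs (log2 -0.25). In the 105 CKO and 91 control cells with Xist and no Y-linked UMIs, the summed mitosis ratio was 1.41. Ccnb2 was there at 241 CPM from 383 UMIs and 120 CPM from 164 UMIs (log2 1.01). Birc5 went likewise, at log2 -0.38 and 0.73. The S phase members Mcm6 (-0.22 and -0.28) and Fen1 (-0.65 and -0.14) were lower in both subsets, and Rrm1 was not (-1.15 and 0.08). The part of the makeup was not tested: memory-like CD4 cells were 19.3% of the Mki67-positive cells in the CKO library and 39.9% in the control library, and effector-like CD8 cells 14.6% and 5.59%. Markers of NK cells, 5 genes, summed to 120 CPM in Mki67-positive CKO cells with 0 of 5 at 0 and to 38.9 CPM in Mki67-positive control cells with 1 at 0. The 2 erythroid markers gave 58 UMIs in Mki67-positive CKO cells and 0 in Mki67-positive control cells. Myeloid markers, 4 genes, summed to 173 CPM in Mki67-positive CKO cells and 106 CPM in Mki67-positive control cells with 2 at 0, and the 2 platelet markers gave 9 and 0 UMIs. Their part was not tested.

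The balance of the lists followed the same lines. Mki67-positive cells held 2.85 mitosis UMIs per S phase UMI in the CKO library (24097 and 8452) and 2.40 in the control library (15922 and 6647), a ratio of 1.19 (1.15 to 1.24). It was 0.853 in cells with Y-linked UMIs and 1.365 in cells with Xist. The 10 cells with the most mitosis UMIs held 19.3% of them in the CKO library and 32.4% in the control library. In Mki67-negative cells the ratios were 1.12 and 1.18.

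Single cells showed that Mki67-positive is a broad class. Thinned to 2000 UMIs, a Mki67-positive CKO cell had a median of 9 of the 39 other members detected (quartiles 3 and 13.2), and a control cell 4 (1.5 and 13). At least 10 members were detected in 47.4% of CKO cells (40.2 to 54.7, 91 of 192) and in 36.4% of control cells (28.5 to 44.8, 52 of 143), with overlapping intervals. At the low end, 0 or 1 members were detected in 8 and 20 CKO cells and in 14 and 22 control cells. Mitosis UMIs exceeded S phase UMIs in 74.5% of the 192 CKO cells (67.7 to 80.5) and in 62.2% of the 143 control cells (53.8 to 70.2), with a difference of at most 1 UMI in 23.4% and 35.7%. Thinned Mki67-negative cells had a median of 1 member detected in both libraries, so a cell with 1 member is not thereby cycling. The part of free RNA was not tested.

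**Figure D5:**
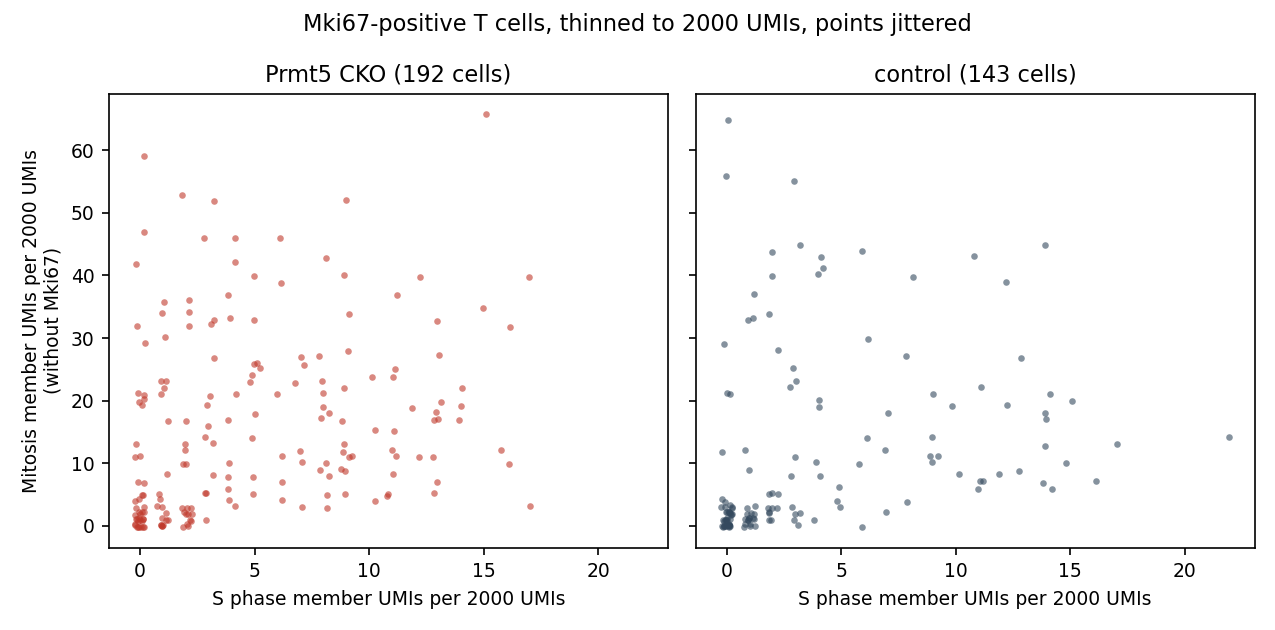
S phase member UMIs (x) and mitosis member UMIs without Mki67 (y) in each Mki67-positive T cell after thinning to 2000 UMIs, with small random offsets, 192 CKO cells left and 143 control cells right. Both panels show a dense group of cells near 0 on both axes and a wide spread of cells above it, and the medians of mitosis UMIs are 11.5 and 4.

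Mki67-negative cells carried low levels, and the members' counts there were near those of all genes. In them 26 of 38 measured members were higher in the CKO library, against 59.1% of all genes. By 1.5-fold 3 members were higher, against 5.7% of all genes, and 0 lower, against 3.0% of all genes. Ccna2, cyclin A2, had 33 UMIs in 24 CKO cells and 10 UMIs in 9 control cells (log2 1.60, 0.55 to 2.79), Ccnb2 had 105 UMIs in 50 CKO cells and 53 UMIs in 27 control cells (log2 0.87, and 0.15 with the stricter filter), and Nusap1 had 23 and 14 UMIs (log2 0.60, -0.42 to 1.67). Bub1, with 7 and 5 UMIs, was too low to measure. At least 5 members were detected in 2.20% of thinned Mki67-negative CKO cells (161 of 7316) and 1.72% of control cells (111 of 6450), so some cells without a Mki67 UMI carried several members.

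Rpa2, described above in naive-like CD4 cells, also differed among Mki67-negative cells as a whole. In Mki67-negative cells it stood at 35.4 CPM from 1708 UMIs in 1406 CKO cells and 25.1 CPM from 1114 UMIs in 945 control cells (log2 0.50, 0.39 to 0.61). Its log2 ratio was 0.46 with the stricter filter, 0.46 in cells with Y-linked UMIs and 0.51 in cells with Xist. In Mki67-positive cells its log2 ratio was 0.01 (-0.25 to 0.27). Mcm5 stood at 20.4 and 15.4 CPM in Mki67-negative cells (log2 0.41, with 0.14 and 0.53 in the Y-linked and Xist subsets), and Ung at 17.3 and 13.7 CPM (log2 0.34). Rrm1 was lower there as well, at 13.9 and 16.3 CPM (log2 -0.23, -0.38 to -0.08), and Pcna at 56.4 and 60.3 CPM (log2 -0.10). The summed S phase ratio was 1.08 (1.06 to 1.10) and the mitosis ratio 1.03 (1.01 to 1.05), of which the mitosis ratio turned to 0.999 with the stricter filter. Erythroid markers gave 362 UMIs in Mki67-negative CKO cells and 53 in Mki67-negative control cells, and myeloid markers summed to 106 and 83.5 CPM, and their part was not tested. Over all T cells the erythroid markers gave 420 and 53 UMIs.

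Genes of the same pathways outside the 40 gave similar counts. In naive- or memory-like CD8 cells 38 of 38 measured other replication genes and 39 of 41 other mitosis genes were higher in the CKO library, against 63.4% of all genes, with median log2 ratios of 0.37 and 0.97. In Mki67-positive cells 36 of 46 other mitosis genes and 18 of 40 other replication genes were higher (medians 0.13 and -0.07), against 53.5% of all genes. Kif23, a kinesin of cytokinesis, stood there at 112 and 68.9 CPM (log2 0.70, 0.42 to 0.98), and Cdc25b, a phosphatase that activates CDK1, at 117 and 76.5 CPM (log2 0.61). In naive-like CD4 cells 28 of 37 other mitosis genes were lower, where 58.0% of all genes were higher.

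Among G1 regulators and CDK inhibitors, 11 of 20 measured genes were higher in Mki67-positive CKO cells, a share near the 53.5% of all genes. The genes named here are those with the largest ratios. Cdkn1a, which encodes the CDK inhibitor p21, stood at 24.9 CPM from 74 UMIs in Mki67-positive CKO cells and 2.24 CPM from 5 UMIs in Mki67-positive control cells (log2 3.48, 2.19 to 5.14). In Mki67-negative cells it stood at 5.42 CPM from 262 UMIs and 2.11 CPM from 94 UMIs (log2 1.36). Cdkn2a, whose locus encodes p16INK4a and p19ARF, gave 46 UMIs in Mki67-positive CKO cells and 2 in Mki67-positive control cells. E2f2, an E2F transcription factor, stood at 77.7 and 48.8 CPM in Mki67-positive cells (log2 0.67) and at 10.6 and 5.67 CPM in Mki67-negative cells (log2 0.91). Of 14 quiescence and anti-proliferative genes, 4 were higher and 10 lower in Mki67-negative CKO cells. The 4 with the largest ratios went both ways. Tsc1 stood at 21.2 and 15.8 CPM there (log2 0.43) and Ccng1 at 42.8 and 34.4 CPM (log2 0.31). Klf2, which keeps T cells at rest, stood at 1001 and 1196 CPM (log2 -0.26) and Klf4 at 35.3 and 41.9 CPM (log2 -0.25).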

How the data were processed

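RNA of CD3+ spleen cells was counted in 2 libraries with 10x Genomics 3' V3.1 chemistry, per the labels' protocols. The deposited matrices hold raw counts of UMIs per gene and barcode, without normalization. The submitters' processing notes name Cell Ranger 3.1.0, CASAVA 1.8, Seurat 2.3.4 and the build mm10, without roles. Chemistry of this kind reads the 3' end, so levels are compared between libraries and not between genes.

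The cell filter asked for 500 or more detected genes and a mitochondrial share below 10%. Clustering (scanpy 1.11.5, Python 3.11.15) used 2000 variable genes, 30 principal components, 15 neighbours and Leiden resolution 1, without 456 cell cycle genes, so that the members do not set the cell types. Clusters were named by thresholds on marker genes that were set after clusters had been seen. Clusters that were B-like or myeloid-like did not count as T cells. UMIs were summed per type and library. A gene counted as measured with at least 30 UMIs over both libraries. Ratios carry exact conditional binomial intervals (scipy 1.17.1), levels exact Poisson intervals and shares Clopper-Pearson intervals, at 95%. The interval code was tested on simulated data.

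The members and lists were chosen with earlier results of these data known. Dividing clusters further was tried and dropped after it separated CD8 cells by library. The cell types described member by member, the checks of them in subsets of cells and the promoters shown were chosen after their values had been seen. Every member was accounted for; of other lists, at most 4 genes with the largest ratios were named. With 1 library per group no test was made. Alternatives covered the cell filter, doublet scores, thinning, sex-linked subsets, clustering and scaling. Promoter windows came from RefSeq (GRCm38.p6).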

Additional observations from a re-analysis of the deposited data

Results flagged for a closer look

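The members ran against their direction in the whole T cell pool in 3 places, and with 1 library per group none of these differences was tested. The summed S phase members were lower in the CKO library in effector-like CD8 cells, at 1424 CPM and 1682 CPM in the control library (ratio 0.846, 0.777 to 0.923), where the whole pool gave 1.09. Here 10 cells held 51.1% of the S phase UMIs of 164 CKO cells and 82.9% of those of 46 control cells.

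They were also lower in gamma-delta-like cells, at 498 CPM and 930 CPM in the control library (ratio 0.535, 0.444 to 0.647). These levels came from 390 UMIs of 101 CKO cells and 161 UMIs of 18 control cells. Of those control UMIs, 160 lay in 17 Mki67-negative cells, and only 6 S phase members were measured. Mitosis members went the other way in gamma-delta-like cells (ratio 1.44, 1.20 to 1.75). The summed mitosis members were lower in naive-like CD4 cells (ratio 0.885, 0.862 to 0.909), where the whole pool gave 1.17.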

How the results depend on the processing

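Of 161 alternative values over 17 results, 100 lay within the interval of the reported ratio or within 1.5 times the reported count, 49 lay outside, and 12 turned a ratio whose interval had excluded 1. In all, 24 of 127 ratios lay on the other side of 1 from the reported value, among them those of the Treg-like share (3), the effector-like CD8 share (4) and the Fcer1g share (2); ratios are CKO over control, and where no construction is named the cause was not tested. With 1000 or more genes and a mitochondrial share below 5% asked of a cell, the share of Mki67-positive T cells became 0.916, the S phase and mitosis sums in all T cells 0.972 and 0.957, the Mki67-negative sums 1.04 and 0.999, the Mki67-positive mitosis sum 1.06 and its mitosis over S phase ratio 1.13. Members past 1.5-fold became 0 in all T cells and 1 in Mki67-positive cells. No share over all genes was computed under any alternative, so counts of members here and below are not read as results about the members.

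In cells with Y-linked UMIs and no Xist, the share ratio became 2.96 in naive-like CD4 cells, 5.25 in naive- or memory-like CD8 cells and 0.506 in the Fcer1g cluster. The S phase and mitosis sums became 1.01 and 0.885 in all T cells and 0.829 and 0.707 in Mki67-positive cells, the ratio between lists 0.853, and 15 members passed 1.5-fold in Mki67-positive cells. In cells with Xist and no Y-linked UMIs, the sums became 1.13 and 1.30 in all T cells and 1.035 and 1.41 in Mki67-positive cells, the Mki67-negative S phase sum 1.11 and the ratio between lists 1.365. There 7 members passed 1.5-fold in all T cells and 5 in Mki67-positive cells.

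With at least 2 Mki67 UMIs for a positive cell, the share ratio became 1.58 in all T cells and 3.54 in naive- or memory-like CD8 cells, the Mki67-positive S phase and mitosis sums 0.864 and 0.993, and 1 member passed 1.5-fold. Top2a in place of Mki67 gave a Mki67-negative mitosis sum of 1.06 and 5 members. With each cell weighted equally, the mitosis sum became 1.10 in all T cells, the Mki67-negative S phase and mitosis sums 1.05 and 0.997, the Mki67-positive ones 1.17 and 1.29, with 2 members past 1.5-fold. Centring on the median gene gave sums of 1.05 and 1.13 in all T cells and 1.05 and 0.996 in Mki67-negative cells. Without Hmgb2 the mitosis sum was 1.20 in all T cells, 1.09 in Mki67-negative and 1.11 in Mki67-positive cells, and without the highest doublet scores it was 1.11 in Mki67-positive cells.

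Keeping cell cycle genes in the clustering gave 0.397 for the CD8 share, with most Mki67-positive cells of that type then in another cluster (37 of 41 from the CKO library, 15 of 25 from the control library). At Leiden resolution 0.5 the Treg-like ratio was 0.906. Thinning to 1000 UMIs gave 2.65 in memory-like CD4 and 0.468 in Treg-like cells, and thinning to 2000 UMIs gave 4.23 in effector-like CD8 cells. The makeup of the control library, chosen after seeing the data, gave 1.62 for the share and 1.16 and 1.36 for the S phase and mitosis sums. With a threshold below 1.5-fold, the counts were 11 in all T, 5 in Mki67-positive and 12 in Mki67-negative cells, past 2-fold they were 0 in all T and 1 in Mki67-negative cells, and with at least 100 UMIs 1 in Mki67-negative cells. Memory-like CD4 and effector-like CD8 cells gave no value at resolution 0.5, nor did effector-like cells thinned to 1000 UMIs. Reads shared with near-identical copies, as for Hmgb2 and Tubb4b, were not examined. No paired analysis was possible because each group has 1 library. The number of cells limits the small types: 18 gamma-delta-like control cells and 46 effector-like CD8 control cells give wide intervals.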
